A study of Rattus norvegicus with 4 samples.

Results

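The imprinted Dlk1-Dio3 locus carries a large group of miRNA genes, and its mature miRNAs were followed here in fracture callus of diabetic and control rats. The members were a list of 51 mature miRNAs of the locus, matched to the array by name alone. All 51 were found by their exact names, among 727 rat miRNAs. The 4 arrays were, in turn, diabetic callus at day 11, control callus at day 11, diabetic callus at day 5 and control callus at day 5 after fracture. All rats were male Sprague-Dawley animals aged 12 weeks. Each had a closed transverse fracture of the femoral shaft with a K-wire in the marrow canal. Diabetic rats had received 1 intravenous dose of 40 mg/kg streptozotocin, which kills pancreatic beta cells, and had blood glucose over 300 mg/dl. Control rats had received sodium chloride and had normal glucose. Callus of 5 animals was pooled for each array, so each group is 1 array and no difference below has a replicate check or a p-value. A difference in bulk callus cannot be told apart between fewer cells of a type and less of the miRNA per cell.

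The miRNAs of this locus are made from the maternal chromosome, out of long noncoding transcripts that include Meg3, a transcript antisense to Rtl1, Rian and Mirg. The paternal chromosome expresses the protein-coding genes Dlk1, Rtl1 and Dio3 instead. The locus is active in embryo, placenta, brain and mesenchymal tissue, and in mice loss of the miRNAs from miR-379 to miR-410 disturbs metabolic adaptation at birth. In mice, miR-127, miR-136, miR-431, miR-433 and miR-434 lie antisense to Rtl1 and match its RNA perfectly.

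The mature sequences below are those of 13 of the 14 members that were higher in diabetic than in control callus at day 11, followed by 4 members set beside them in the text. Sequences were taken from RefSeq (assembly GRCr8), with the seed, bases 2 to 8, in capitals.
miR-127-3p: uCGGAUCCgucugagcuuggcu
miR-434-3p: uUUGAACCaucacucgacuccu
miR-337-3p: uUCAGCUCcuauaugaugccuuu
miR-379-5p: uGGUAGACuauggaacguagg
miR-379-3p: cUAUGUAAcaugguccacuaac
miR-411-5p: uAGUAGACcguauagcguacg
miR-411-3p: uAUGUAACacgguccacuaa
miR-329-3p: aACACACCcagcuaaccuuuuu
miR-495: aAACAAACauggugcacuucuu
miR-376c-3p: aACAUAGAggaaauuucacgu
miR-376a-3p: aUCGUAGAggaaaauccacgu
miR-382-5p: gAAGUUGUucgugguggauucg
miR-410-3p: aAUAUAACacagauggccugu
miR-376b-3p: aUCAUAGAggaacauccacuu
miR-487b-3p: aAUCGUACagggucauccacuu
miR-494-3p: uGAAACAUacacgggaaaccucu
miR-370-3p: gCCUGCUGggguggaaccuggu
miR-136-5p was the other member that was higher.

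Of the 51 members, 49 had a RefSeq sequence, and these held 49 different seeds. The 13 higher members with a sequence therefore shared no 7-base seed with each other. Among the 653 miRNAs of the array with a sequence, 5 members shared a seed with a miRNA outside the list, for example miR-329-3p with miR-362-3p. The miR-376 miRNAs were the closest relatives. Counted from 1 at the 5′ end, with the base of miR-376b-3p first, miR-376a-3p differed from it by A4G, C13A and U20G. On the same count miR-376c-3p differed from miR-376b-3p by U2A, C13A, A14U, C16U and U20G. Probes of such close sequences can bind each other's target, so the values within this family are uncertain.

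The members were assigned to 3 blocks by the transcript known to carry each, not by distance. Those with a position in GRCr8 lay on the plus strand of chromosome 6, within chr6:134298129-134579828, a span of 281.7 kb. The block of Meg3 and antisense Rtl1 held 13 members (11 with a position), over 33.3 kb from miR-770-3p to miR-136-3p. Within it miR-770-3p stood apart, 23.0 kb before miR-337-5p. The Rian block held miR-341 and miR-370-3p, and lay 16.5 kb beyond miR-136-3p. The Mirg block held the remaining 36 members over 36.4 kb, from miR-379-5p to miR-410-3p. It lay 188.9 kb beyond miR-370-3p, and 84 annotated snoRNA genes stood in that gap.

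Levels are spot intensities minus the mean of the blank spots, multiplied by 1 factor per array that puts the median over 400 commonly detected miRNAs at 100. Levels of different probes were not set against each other, because probes bind with different strength. A miRNA counted as detected where its spot was more than 2 SD of the blank spots above their mean. Scaled, that limit was 11.9 on the diabetic and 11.5 on the control array at day 11, and 11.2 on the diabetic and 10.02 on the control array at day 5. The diabetic day 11 array was the dimmest before scaling, with a mean spike control signal of 14528 against 31916 to 36103 on the other 3 arrays. Callus markers were clearly present. The summed level of 6 cartilage miRNAs at day 11 was 5825 in diabetic and 18430 in control callus, and that of 3 mesenchymal miRNAs was 30100 in diabetic and 24890 in control callus. The brain miRNA miR-124-3p was near or below its limit, with levels of 7.04 in diabetic and 0.41 in control callus at day 11 and of 12.2 in diabetic and 10.5 in control callus at day 5.

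Most members were measurable in callus. At day 11, 44 of the 51 members (86.3%) were detected in diabetic and 42 (82.4%) in control callus. At day 5, 47 (92.2%) were detected in diabetic and 43 (84.3%) in control callus. Over all 727 miRNAs these shares were 66.3% in diabetic and 68.9% in control callus at day 11, and 77.0% in diabetic and 69.3% in control callus at day 5. There were 39 members detected on all 4 arrays, 10 on some of them, and 2 on none, namely miR-380-5p and miR-758-3p. Each of the 10 had levels under 50 throughout.

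Diabetic and control callus were compared at day 11 first. Of the 41 members detected in both, 32 had a higher level in diabetic callus, as had 52.7% of all compared miRNAs, and 9 a lower one, as had 47.3%. Their median log2 difference, diabetic minus control, was 0.61, against 0.03 over all miRNAs compared. A member was called higher or lower where it differed at least 1.5-fold and by at least 2 technical errors. The technical error combines the scatter of the spike control spots with that of the blank spots, and covers the array alone, not the animals. By this rule 14 members were higher, where 8.55% of all compared miRNAs were higher. None was lower, where 9.47% of all compared miRNAs were lower. At 2-fold or more, 8 members were higher, where 3.93% of all compared miRNAs passed, and none lower, where 4.85% passed. Another processing used normexp (offset 50) on the scanner's local background, followed by quantile normalization. With it 6 members were called higher and the median was 0.21, with 33 members above 0 and 7 below. The share of all miRNAs called under this setting was not counted. It changes the offset and the scaling as well as the background, and the part of each was not tested.

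**Figure D1:**
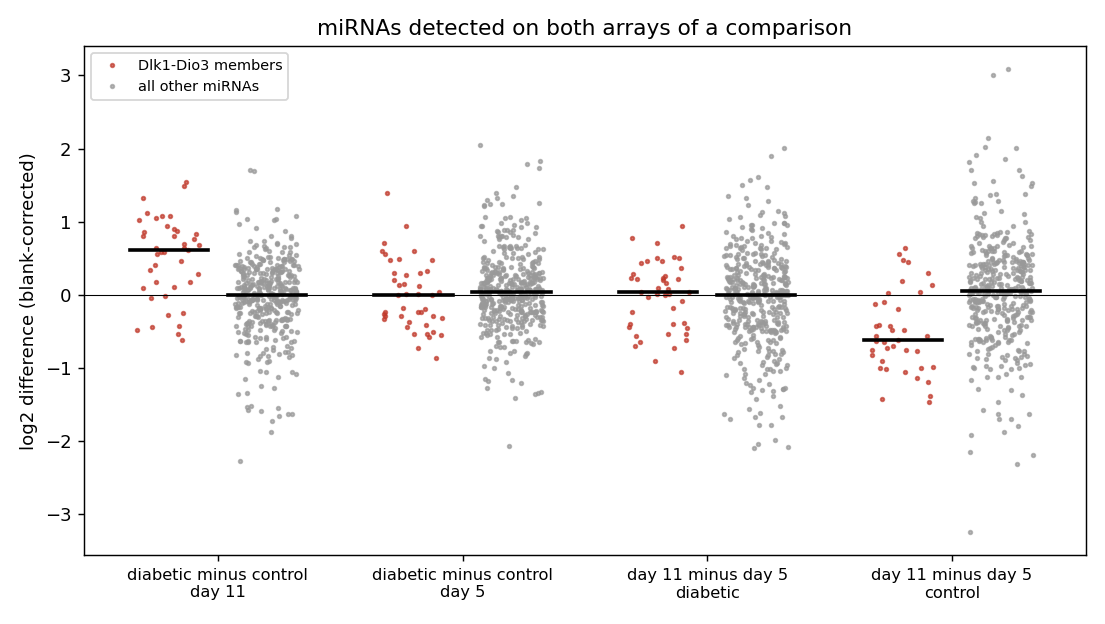
Log2 differences of miRNAs detected on both arrays of each comparison (y axis), with 1 point per miRNA, cluster members in red and all other miRNAs in grey, and black bars for the medians. In the first column most red points (32 of 41) lie above 0, and in the last column most (30 of 39) lie below 0; both comparisons use the control day 11 array.

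The Meg3 and antisense-Rtl1 block was split. All 13 of its members were compared at day 11, with a median log2 difference of 0.59, 9 above 0 and 4 called higher: miR-127-3p, miR-136-5p, miR-337-3p and miR-434-3p. At day 11 miR-127-3p had a level of 231 in diabetic and 126.7 in control callus, and at day 5 of 232 in diabetic and 209 in control callus. The control day 11 array alone was low, and the diabetic-minus-control log2 difference there was 0.87 with a technical error of 0.13. Levels of miR-434-3p were 166 in diabetic and 109 in control callus at day 11, and 117 in diabetic and 152 in control callus at day 5. Its day 11 log2 difference was 0.61 ± 0.14 (technical error), and at day 5 diabetic callus was below control. Levels of miR-337-3p, reported in rat cartilage as a regulator of the TGF-beta receptor Tgfbr2, were 59.5 in diabetic and 29.2 in control callus at day 11. At day 5 they were 77.6 in diabetic and 78.0 in control callus. The control day 11 array was again the low one, with a log2 difference of 1.03 ± 0.34 at day 11.

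Of the members of this block that were not called, 5 were above 0 at day 11 and 4 below. miR-136-3p, with a level of 31.3 in diabetic and 17.9 in control callus at day 11, and miR-337-5p, with 45.3 in diabetic and 29.0 in control callus, were also lowest on the control day 11 array. Other members of the block went the other way. Levels of miR-665 were 178 in diabetic and 211 in control callus at day 11, and 241 in both diabetic and control callus at day 5. Levels of miR-770-3p, which lies nearest to Dlk1 among the members with a position, were 69.9 in diabetic and 94.9 in control callus at day 11, and 82.1 in diabetic and 93.0 in control callus at day 5. Levels of miR-540-3p were 61.5 in diabetic and 85.7 in control callus at day 11, and 81.2 in diabetic and 93.0 in control callus at day 5. For these 3 members the diabetic day 11 array was the lowest of the 4, and none of their differences passed the rule. With normexp on the local background the day 11 log2 difference of miR-665 was 0.48 in place of -0.25, while miR-770-3p and miR-540-3p stayed below 0. miR-433-3p, which targets the bone transcription factor Runx2 in mouse mesenchymal cells, was close to its limit. It had a level of 21.8 in diabetic and 14.5 in control callus at day 11 and was not detected at day 5.

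The Rian block gave opposite signs and no call. miR-370-3p had a level of 351 in diabetic and 472 in control callus at day 11, and of 479 in diabetic and 382.03 in control callus at day 5. Diabetic callus was the lower of the pair at day 11 and the higher at day 5, with log2 differences of -0.43 ± 0.11 and 0.33 ± 0.18. miR-341 had a day 11 log2 difference of 0.94 ± 0.74, from levels near the limit.

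The Mirg block held 10 of the 14 members that were higher at day 11. Of its 26 members compared, 22 were above 0, with a median log2 difference of 0.66. The block begins with the hairpins of miR-379 and miR-411, each measured on both arms. Levels of miR-379-5p were 309.6 in diabetic and 147 in control callus at day 11, and 218.5 in diabetic and 216 in control callus at day 5. Levels of miR-379-3p were 106 in diabetic and 37.7 in control callus at day 11, and 76.6 in diabetic and 104 in control callus at day 5. Diabetic callus was higher on both arms at day 11, by 2.11-fold for the 5p arm and 2.80-fold for the 3p arm. At day 5 the 5p arm was level between the groups and the 3p arm was lower in diabetic callus.

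miR-411-5p differs from miR-379-5p, counted from 1 at the 5′ end with the base of miR-379-5p first, by G2A, U9C, A10G, G12A, G13U, A15G and G20C. Its levels were 135 in diabetic and 72.0 in control callus at day 11, and 116 in diabetic and 106 in control callus at day 5. Levels of miR-411-3p were 135 in diabetic and 65.3 in control callus at day 11, and 116 in diabetic and 135.5 in control callus at day 5. Both arms were low on the control day 11 array, and their day 11 log2 differences were 0.91 ± 0.17 for the 5p arm and 1.05 ± 0.18 for the 3p arm.

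The miR-376 group, whose transcripts are edited in human and mouse brain, was measured for 3 miRNAs. miR-376a-3p had a level of 115 in diabetic and 52.6 in control callus at day 11, and of 82.8 in diabetic and 120 in control callus at day 5. Its diabetic-minus-control difference was therefore positive at day 11 and negative at day 5, with log2 values of 1.12 ± 0.21 and -0.53 ± 0.21. miR-376c-3p had a level of 46.2 in diabetic and 21.9 in control callus at day 11, and of 35.8 in diabetic and 29.1 in control callus at day 5. It was 2.11-fold higher in diabetic callus at day 11, but its log2 difference was -0.27 with normexp on the local background. miR-376b-3p had a log2 difference of 0.58 ± 0.25 at day 11 and was not called.

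The 3 remaining members of the block that were at least 2-fold higher in diabetic callus in a comparison were dim. miR-382-5p had a level of 56.2 in diabetic and 19.3 in control callus at day 11, and of 47.9 in diabetic and 38.9 in control callus at day 5. miR-410-3p, the last of the cluster, had a level of 43.8 in diabetic and 17.4 in control callus at day 11, and of 30.7 in diabetic and 45.6 in control callus at day 5. The control day 11 values of both stood less than 2-fold above the limit of 11.5, and the log2 differences of 1.54 ± 0.47 and 1.33 ± 0.52 have wide errors. miR-668 was the member at least 2-fold higher at day 5, with a level of 42.4 in diabetic and 16.2 in control callus, and at day 11 it had 32.3 in diabetic and 22.0 in control callus.

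Several members of the Mirg block differed little between diabetic and control callus at day 11. miR-494-3p had a level of 3437 in diabetic and 3044 in control callus at day 11, and of 2875 in diabetic and 1954 in control callus at day 5. miR-487b-3p had a level of 1564 in diabetic and 1129 in control callus at day 11, and of 1521 in diabetic and 1510.0 in control callus at day 5. Neither passed 1.5-fold between diabetic and control callus, and for miR-487b-3p the control day 11 array was the low one of the 4. miR-667-3p had a level of 250.0 in diabetic and 220.3 in control callus at day 11, and of 247 in diabetic and 214 in control callus at day 5. miR-381-3p had a level of 103 in diabetic and 106.5 in control callus at day 11, and of 97.7 in diabetic and 143 in control callus at day 5. With normexp on the local background, however, the day 11 log2 difference was 0.94 for miR-494-3p and 0.82 for miR-381-3p. miR-134-5p, which limits Limk1 in dendrites of rat neurons, had a level of 62.7 in diabetic and 51.4 in control callus at day 11, and of 92.3 in diabetic and 113 in control callus at day 5. It was lower at day 11 than at day 5 in diabetic and in control callus.

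**Figure D2:**
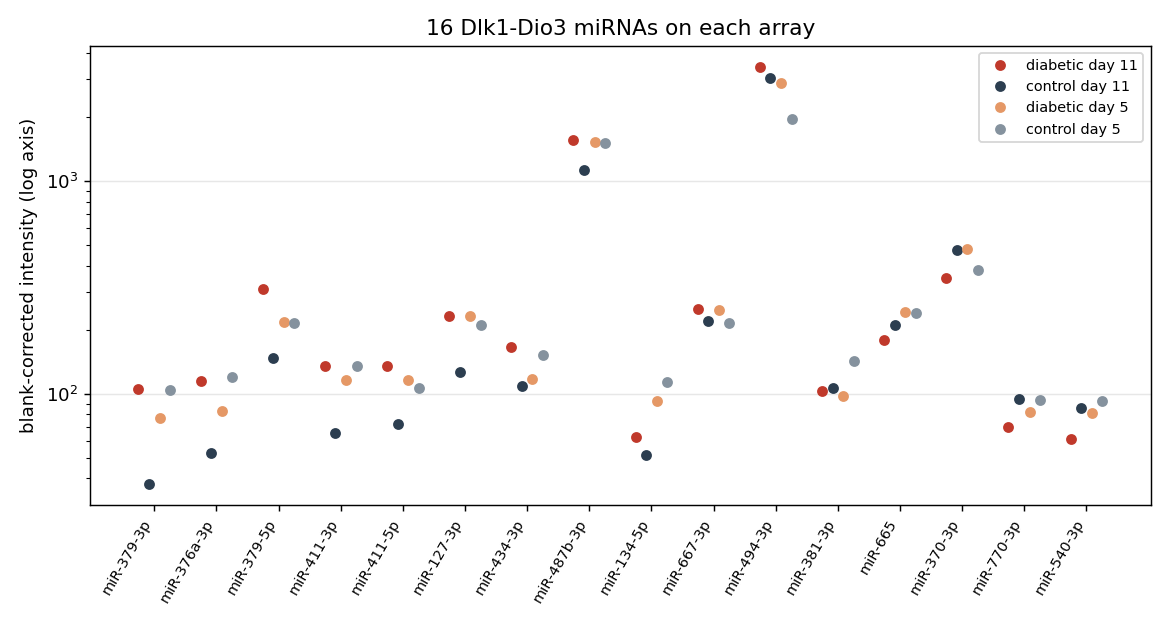
Blank-corrected, scaled intensity on a log axis (y) of the 16 cluster members with the highest mean level among those detected on all arrays (x, ordered by their day 11 difference), with 1 point per array. For miR-379-3p, miR-376a-3p, miR-411-3p and miR-127-3p the control day 11 point lies apart below the other 3, while for miR-370-3p, miR-770-3p and miR-540-3p the diabetic day 11 point is the lowest; heights of different miRNAs are not comparable.

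Members detected on 1 array of a pair give a bound on the fold between measured levels. The bound leaves out the scatter of the spots, so it is not a lower limit on the true difference. At day 11 miR-369-5p was at least 3.70-fold higher in diabetic callus, with a level of 42.4 there, against 11.451 in control callus, which lies just under the limit of 11.46 and has a value in the authors' deposited table. In the same comparison miR-496-3p was at least 2.37-fold and miR-539-5p at least 1.86-fold higher in diabetic callus, while miR-323-3p was at least 1.51-fold lower. Each bound sets the detected level against the lowest level among detected miRNAs on the other array. At day 5 miR-412-3p was at least 3.30-fold, miR-539-5p at least 3.00-fold, miR-409a-5p at least 1.77-fold and miR-369-3p at least 1.13-fold higher in diabetic callus. All of these levels were under 50, so the bounds concern faint spots. Of all 727 miRNAs the diabetic day 5 array detected 560 and the control day 5 array 504. At day 11 the diabetic array detected 482 and the control array 501. How many of all miRNAs were detected on only 1 array of a pair was not counted, so these bounds do not set the members apart.

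At day 5 the members lay on both sides of 0 in near equal numbers. Of the 43 members compared, 21 were above 0, where 54.9% of all compared miRNAs were, and 22 below, where 45.1% were. Their median log2 difference was -0.007, against 0.04 over the 468 miRNAs compared. miR-299a-5p and miR-668 were called higher, where 6.62% of all compared miRNAs were, and miR-495 was called lower, where 5.56% were. At 2-fold or more there was 1 member higher, where 4.27% of all compared miRNAs passed, and none lower, where 2.56% passed. With so few members called, these shares do not set the members apart from all miRNAs. miR-299a-5p had a level of 64.3 in diabetic and 42.4 in control callus at day 5. With normexp on the local background its log2 difference there was -0.04 in place of 0.60. miR-495 had a level of 32.6 in diabetic and 53.8 in control callus at day 5, and of 62.3 in diabetic and 34.3 in control callus at day 11. The diabetic group was thus the lower of the pair for miR-495 at day 5 and the higher at day 11.

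The day 11 difference was set against the day 5 difference for each of the 39 members detected on all arrays. Subtracting the day 5 log2 difference from the day 11 log2 difference gave a median of 0.58, against 0.04 over all 400 such miRNAs. It was above 0 for 29 of the 39 members, and for 211 of the 400 miRNAs. For 16 members the value exceeded 2 of its technical errors upwards, and for 1 member downwards. That count was not made over all 400 miRNAs, so it cannot be read against a share of them. With 1 array per group this difference of differences has no test.

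**Figure D3:**
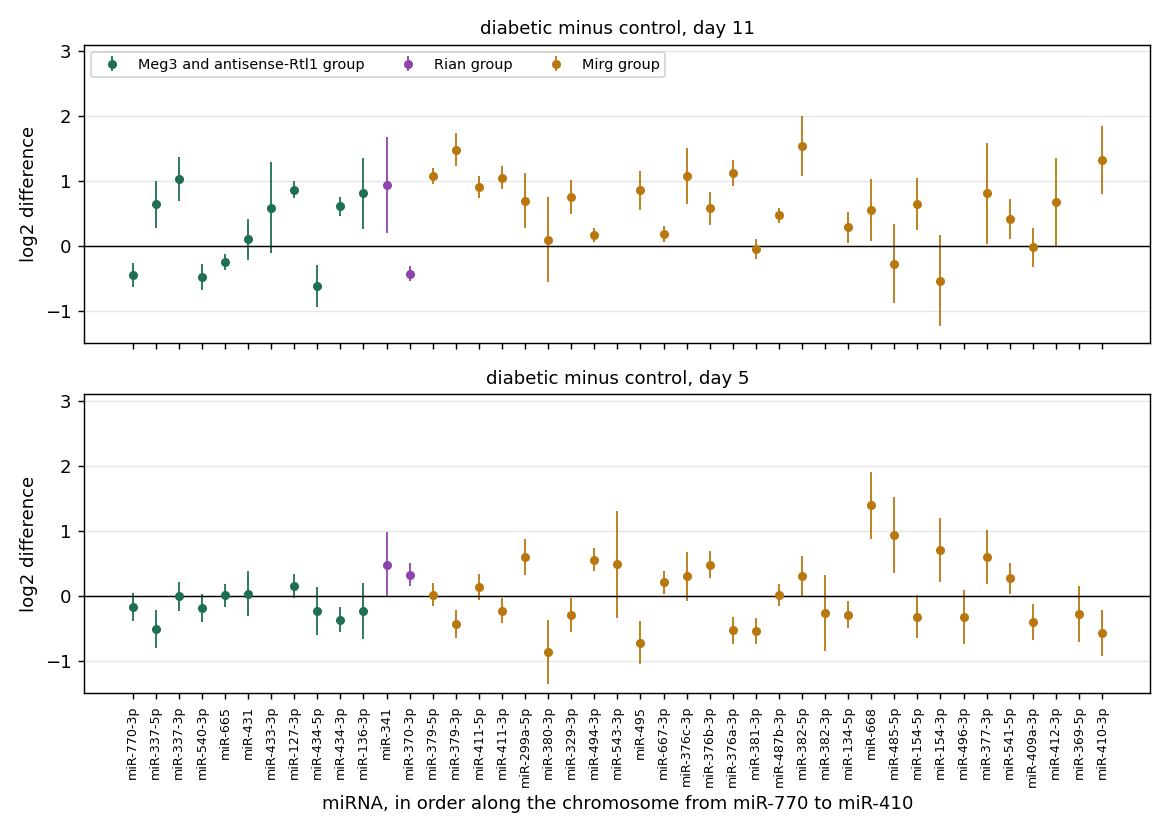
Log2 difference, diabetic minus control (y axis), of members with a RefSeq position, in their order along the chromosome (x), at day 11 above and day 5 below, with technical errors as bars and colours for the 3 blocks. At day 11 the points from miR-379-5p to miR-411-3p all lie above 0, whereas at day 5 points of all but the Rian block lie on both sides of 0.

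Day 11 was then compared with day 5 within each group. In control callus 30 of the 39 members compared were lower at day 11, as were 47.3% of all compared miRNAs, and 9 were higher, as were 52.7%. Their median log2 difference, day 11 minus day 5, was -0.62, against 0.03 over 446 miRNAs. Of these members 14 were called lower, where 15.9% of all compared miRNAs were, and miR-494-3p was called higher, where 15% were. That call does not hold with normexp on the local background, which gave -0.62 in place of 0.64 for miR-494-3p. The local background of this miRNA was 72.2% of its spot at day 11 and 9.78% at day 5 in control callus. At 2-fold or more 8 members were lower and none higher, where 6.95% of all compared miRNAs passed in each direction. The largest called changes were those of miR-379-3p at -1.46 ± 0.29, miR-337-3p at -1.42 ± 0.34 and miR-410-3p at -1.39 ± 0.53 on the log2 scale. In the Mirg block 20 of 25 members were lower at day 11, and in the Meg3 and antisense-Rtl1 block 9 of 12. With normexp on the local background 7 members were called lower and the median was -0.15.

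In diabetic callus the members were divided between both directions over time. Of 43 members compared, 24 were higher at day 11, where 50.2% of all compared miRNAs were, and 19 lower, where 49.8% were. Their median log2 difference was 0.04, against 0.007 over 444 miRNAs. miR-127-5p and miR-495 were called higher, where 10.6% of all compared miRNAs were, and miR-299a-5p, miR-376b-3p and miR-541-5p were called lower, where 12.6% were. At 2-fold or more none was higher, where 3.83% of all compared miRNAs passed, and 1 member was lower, where 8.11% passed. With normexp on the local background the log2 difference of miR-299a-5p was 0.14 in place of -0.72.

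The 2 comparisons in which the members moved together, diabetic against control at day 11 and day 11 against day 5 in control callus, share the control day 11 array. Across the 39 members detected on all 4 arrays, the control day 11 array held the lowest level for 24 (61.5%), against 121 of all 400 miRNAs (30.2%). It held the highest level for 2 members, against 24.75% of all 400 miRNAs. The diabetic day 11 array held the highest level for 15 members, against 25.25% of all 400. The diabetic and control day 5 arrays held it for 11 members each, against 26.75% and 23.25% of all 400. A low reading of these members on 1 array and a lower level in control callus at day 11 cannot be told apart with 1 array per group.

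Where both arms of a hairpin were members and both were compared, their differences could be set side by side. At day 11 there were 7 such hairpins. In 5 of them both arms had a log2 difference above 0: miR-127, miR-136, miR-337, miR-379 and miR-411. Both arms were called higher only for miR-379 and miR-411. In the other 2 the arms had opposite signs. The log2 difference of miR-434-3p was 0.61 and that of miR-434-5p -0.62 ± 0.32, and miR-154-5p stood at 0.65 ± 0.39 against -0.53 ± 0.70 for miR-154-3p. Among these 7 only miR-434 had a gap between the arms, 1.23 on the log2 scale, that exceeded 2 of its technical errors (0.35). Over the 7 hairpins the median gap was 0.41 with a median technical error of 0.35. Hairpins with the second arm off the member list are not in these counts. Of those compared at day 11, miR-134, miR-299a, miR-376b, miR-541 and miR-667 had arms of opposite sign. miR-433, miR-485, miR-540 and miR-770 had arms of the same sign. The log2 difference was 0.58 ± 0.25 for miR-376b-3p and -1.035 ± 0.443 for miR-376b-5p.

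The array also carries 40 miRNAs off the member list whose names hold a number of this locus, mostly second arms of the same hairpins. Among them miR-299b-5p, miR-299b-3p and miR-409b lie on the opposite strand. Locus miRNAs under other numbers, such as miR-3544, were not counted. The 40 did not show the same shift at day 11. Of 17 compared, 5 were above 0 and 12 below, with a median log2 difference of -0.06. miR-666-5p was called higher, with a level of 282 in diabetic and 180 in control callus. miR-758-5p and miR-376b-5p were called lower, with levels of 15.97 in diabetic and 58.5 in control callus for the first and of 22.0 in diabetic and 45.2 in control callus for the second. With the members included, 58 miRNAs of the locus were compared, with a median of 0.35, 37 above 0, 15 called higher and 2 called lower. In control callus over time 12 of 20 such non-members were above 0, with a median of 0.07. Fewer of them were bright: 15 of the 40 were detected on all arrays, and 6 of those had a mean level of at least 50. At day 11 these 6 had a median of -0.04, with 2 above 0 and 4 below. The 9 dimmer ones had a median of -0.09, with 2 above 0 and 7 below. In control callus over time the medians were 0.35 for the 6 and -0.035 for the 9. The part of brightness was not tested.

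Of the members detected on all arrays, 21 had a geometric mean level over the 4 arrays of at least 50, and their median log2 difference at day 11 was 0.58, with 10 (47.6%) called higher. The 18 dimmer members had a similar median of 0.64, but fewer, 4 (22.2%), were called higher. The median over 262 other miRNAs with a mean level of at least 50 was 0.03, with 14 (5.34%) called higher. Over 99 dimmer ones it was -0.14, with 8 (8.08%) called higher. If a level of at least 50 was asked of both arrays instead, which leaves out members that were low on either, 15 members remained, with a median of 0.29 and 6 called higher.

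Base composition moved with the difference among members. The GC content of the mature sequence had a median of 45.5% (range 23.8 to 70.6%) over 49 members, and of 47.7% over 604 other miRNAs. Across the 39 members compared at day 11 that had a sequence, Pearson's r between GC content and the log2 difference was -0.41 and Spearman's rho -0.38. Across 350 other miRNAs r was -0.04. The 22 members with under 50% GC had a median log2 difference of 0.78, with 19 above 0, and the 17 members with 50% GC or more had a median of 0.29, with 11 above 0. In control callus over time the same split gave medians of -0.70 for the members with under 50% GC and -0.19 for the other members. Pearson's r was 0.44 across members in that comparison. Other miRNAs moved the same way there, with r of 0.25 across 366 of them. Their medians were -0.115 with under 50% GC and 0.18 with 50% GC or more. These points share the same pair of arrays, and the part of base composition in the result was not tested.

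**Figure D4:**
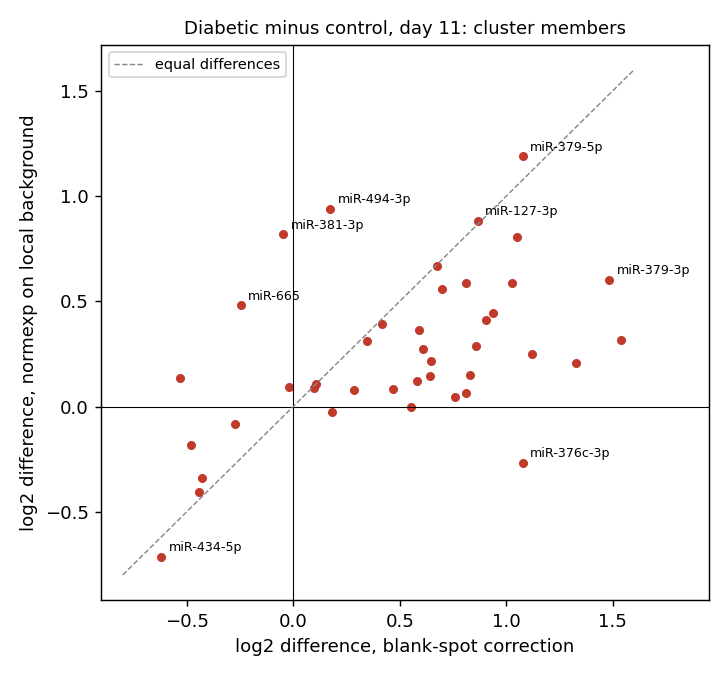
Log2 difference, diabetic minus control at day 11, of 41 cluster members with the blank-spot correction (x axis) and with normexp on the local background followed by quantile normalization (y axis), with 1 point per miRNA and a dashed line of equal differences. Most points keep a positive sign on both axes but lie below the line, and miR-376c-3p (-0.27 on the y axis) falls below 0.

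Markers of cell types moved between the same arrays. At day 11 the 6 cartilage miRNAs had a median log2 difference of -1.46, with 5 called lower in diabetic callus, and miR-140-3p, abundant in chondrocytes, had a level of 3187 in diabetic and 10570 in control callus. In control callus over time the cartilage median was 2.08, with 4 of 6 called higher at day 11. The 6 miRNAs of the miR-17 to miR-92a cluster, known from dividing cells, had a median of 0.59 at day 11, with 4 called higher and a summed level of 3132 in diabetic and 2077 in control callus. In control callus over time all 6 were called lower at day 11, with a median of -1.14. The 3 mesenchymal miRNAs had a median of 0.27 at day 11, and none was called. At day 11 the median was 0.07 for the muscle list (5 miRNAs), 0.14 for the leukocyte list (5 miRNAs), 0.14 for the endothelial list (2 miRNAs) and -0.005 for the erythroid list (2 miRNAs), with no miRNA of these lists called. With normexp on the local background the endothelial median was 0.56 and the erythroid median 1.98. The muscle and leukocyte medians changed sign with it, to -0.268 and -0.183. Over time in control callus these lists moved further. Medians were -1.62 for muscle (5 of 5 called lower at day 11) and -2.14 for leukocytes (4 of 5 lower). They were -0.85 for endothelium (2 of 2 lower) and 1.74 for the erythroid list (2 of 2 higher). With normexp on the local background the erythroid median in this comparison was -1.025. The medians for muscle (-1.428), leukocytes (-1.612) and endothelium (-1.3) stayed below 0. Summed levels at day 11 were 9999 in diabetic and 9412 in control callus for muscle, and 1559 in diabetic and 1325 in control callus for leukocytes. Of 5 epithelial miRNAs only 1 was detected on all arrays, and of 3 neuronal miRNAs none was. The part of cartilage, dividing cells or other cell types in the members' differences was not tested.

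Imprinted miRNAs of other loci did not move with the cluster. Of 9 such miRNAs on the array, 8 were compared at day 11, with a median log2 difference of -0.23, 2 above 0 and 1 called lower, miR-675-3p of the H19 gene, which also stands in the cartilage list. In control callus over time 7 of 8 were above 0, with a median of 0.42. miR-335, which lies in the imprinted gene Mest, had a level of 716 in diabetic and 749 in control callus at day 11, and of 464 in diabetic and 542.5 in control callus at day 5.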

How the data were processed

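Total RNA of callus was labelled with Cy5 and hybridised to 1-colour 3D-Gene miRNA arrays, per the labels' protocols. Per the file headers, the deposited scanner files give the median intensity and the local background intensity of each spot, with no background subtracted. The members, groups and marker lists were chosen with earlier results of these data known. The trimmed mean (5% off each end) of 1504 blank spots was subtracted instead of the local background. The reason was that in earlier results of these data the local background followed the spot intensity. The local background took 51.5 to 67.4% (array medians) of the spot signal of detected members. Differences were taken on the log2 scale between arrays; with 1 array per group no test was run, and the technical error came from 8 spots of each of 2 spike controls and from the blank spots. The number of arrays limits the precision. Members given with all 4 levels were the 16 with the highest mean log2 level among those detected on all arrays, and those called in a diabetic-minus-control comparison at 2-fold or more; the others stand as ranges or examples, and miR-299a-5p, miR-433-3p, miR-495, miR-136-3p, miR-337-5p, miR-341 and the members with a bound were added after their values were seen.

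The authors' deposited value table holds linear intensity values: per array they equalled the blank-corrected value times 1 factor (r = 1.0 across miRNAs on the log2 scale), with a median of 25.0 on each array and empty cells for nearly all miRNAs under the detection limit used here. How that table was made is not given in the sources used here. Alternatives tried were normexp (offset 50, limma 3.58.1, R 4.3.3) with quantile normalization, on the local background or on the blank mean; quantile, spike control and non-member scaling; a filter on dim probes; the authors' values; and 1 value per hairpin. The procedure was tested on simulated data. Other steps used Python 3.11.15, numpy 2.4.6, pandas 2.3.3 and matplotlib 3.10.9.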

Additional observations from a re-analysis of the deposited data

Results flagged for a closer look

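Some results had opposite signs in the diabetic and control groups or at the 2 times, and none of these differences was tested. The median log2 difference over the members, diabetic minus control, was 0.61 at day 11 and -0.007 at day 5. The day 5 value is near 0 beside a median technical error of 0.275, so its sign is not resolved. For miR-376a-3p the same difference was 1.12 at day 11 and -0.53 at day 5. For miR-379-3p it was 1.48 at day 11 and -0.44 at day 5. For miR-495 it was 0.86 at day 11 and -0.73 at day 5. The median over the members, day 11 minus day 5, was 0.04 in diabetic and -0.62 in control callus. The diabetic value is likewise near 0 beside a median technical error of 0.257.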

How the results depend on the processing

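No paired analysis was possible because each group is 1 array and the labels carry no replicate numbers. The signs of the member median at day 11 (0.20 to 0.77) and in control callus over time (-0.75 to -0.15) held under all 10 alternatives. For the day 11 median, normexp gave 0.21 on the local background and 0.20 on the blank mean, and a level of at least 50 on both arrays gave 0.29. For control callus over time normexp gave -0.15 and -0.22. With the authors' deposited table the median was 0.29 at day 5 and -0.25 over time in diabetic callus, but that table also shifted the median of all miRNAs to 0.34 and -0.29. At day 11 the 14 members called higher became 6 and 2 under the 2 normexp settings and 6 with the filter on dim probes, while 1 was called lower with the local background, with the authors' table and per hairpin. At day 5 the 2 called higher became 8 with the authors' table, 0 with the dim filter and either normexp, and 1 with quantile, non-member or spike control scaling or per hairpin. The 1 called lower became 9 with spike control scaling, 5 with quantile, 2 per hairpin and 0 with the authors' table, the dim filter or either normexp. In control callus over time the 14 called lower became 9 per hairpin, 4 with the dim filter, 3 with the blank mean and 7 with the local background. The 1 called higher became 2 per hairpin and 0 with either normexp or with quantile, non-member or spike control scaling. In diabetic callus over time the 2 called higher became 7 with spike control scaling, 4 with quantile, 1 with the authors' table, the local background or member arms alone, and 0 with the dim filter or the blank mean. The 3 called lower became 10 with the authors' table, 5 per hairpin, 1 with the dim filter, quantile or the local background, and 0 with the blank mean. Counts per hairpin include arms that are not members; averaging member arms alone, and No Probe spots as background, were added after the data had been seen. Under normexp on the local background 21 of 84 named differences changed sign, 4 of 21 at day 11. Among the called ones of these 84 there were 3: miR-376c-3p at day 11 (-0.27), and over time in control callus miR-382-5p (0.17) and miR-494-3p (-0.62). Outside the 84, called differences of miR-299a-5p also changed sign, at day 5 (-0.04) and over time in diabetic callus (0.14). Over time in control callus so did those of miR-136-5p (0.07) and miR-329-3p (0.16). The cause was not tested. Of 568 alternative values of named members, 131 that are not among the 3 called sign changes moved by over the technical error. The dim filter tests fewer members by construction. Faint spots limit the rest: 37 detected members on each day 11 array had a local background of at least 50% of the spot.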
